A study of Homo sapiens with 15 samples.

Results

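The genes RNF115, PPP6C, MRC2, PRNP, MORF4L2, C1D, IER3IP1, FAM189B, SPNS3 and SPTSSA were followed through RNF5 knockdown (RNF5-KD) in 3 lines of acute myeloid leukemia (AML), namely HL-60, MOLM-13 and U937. They were chosen because all 10 fell with RNF5-KD in all 3 lines, so their fall is given as a description and was not tested. MOLM-13 and U937 have monocytic and HL-60 promyelocytic features. The members were found by symbol among 57820 gene identifiers, of which 11072 had values above 0 in every line. These symbols were carried by 11 identifiers, and 10 had values, because a second identifier for IER3IP1 was listed at 0 in every library. The 15 libraries came from cells transduced with an empty lentiviral vector (pLKO) or with a short hairpin RNA against RNF5 (shRNF5). There were 3 libraries of each construct for HL-60 and 2 of each for U937, while for MOLM-13 there were 3 with pLKO and 2 with shRNF5. Labels place the RNA harvest at day 7 and the series design at day 5, and which RNF5 hairpin was sequenced is not named in the sources used here. The labels do not say whether replicates were separate cultures, so the spread between libraries may be technical.

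RNF5 is a ubiquitin ligase anchored in the membrane of the endoplasmic reticulum (ER), where it takes part in the disposal of misfolded proteins. The 10 genes have no shared pathway by design. RNF115 encodes another RING ubiquitin ligase and PPP6C the catalytic subunit of protein phosphatase 6. MORF4L2 and C1D encode nuclear proteins, the first a partner of histone-modifying complexes and the second a cofactor of the RNA exosome, which trims and degrades RNA. IER3IP1, PRNP, MRC2 and FAM189B encode proteins of the secretory route or the cell surface. SPTSSA and SPNS3 belong to sphingolipid synthesis and to the Spinster family of transporters, respectively.

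All values are normalized read counts, which the authors scaled within each line and rounded to whole numbers. Counted reads per library ranged, as estimated from gaps between low values, from 9700000 to 63800000. A second setting of this estimate gave the same depth for 13 of the 15 libraries, but 73100000 in place of 24400000 for MOLM-13 shRNF5 replicate 2 and 34500000 in place of 17300000 for U937 shRNF5 replicate 1. The MOLM-13 shRNF5 libraries were deeper than the MOLM-13 pLKO libraries, whose estimates ended at 15300000, and the part of depth in the MOLM-13 values was not tested. Of 8 myeloid markers, 8 were above 0 in MOLM-13 and U937 and 7 in HL-60, where CSF1R was listed at 0. None of 10 markers of other cell types was above 0 in MOLM-13 or HL-60, and 1, the collagen gene COL1A1, was in U937, with 39 and 234 in the pLKO and 15 and 29 in the shRNF5 libraries.

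The knockdown was checked on RNF5 itself. RNF5 counts in MOLM-13 were 1223, 1017 and 1020 with pLKO and 76 and 81 with shRNF5. RNF5 counts in U937 were 648 and 843 with pLKO and 46 and 74 with shRNF5. RNF5 counts in HL-60 were 506, 689 and 545 with pLKO and 37, 133 and 43 with shRNF5. Every shRNF5 library lay below every pLKO library of its line, and HL-60 shRNF5 replicate 2 kept the most RNF5 of the 7 shRNF5 libraries. In bulk RNA, fewer cells of a kind and less RNA per cell cannot be told apart. The share of the HL-60 pLKO mean left in that library was 22.9%, against 6.38% and 7.41% in replicates 1 and 3.

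Short matches to the hairpins were read from the members' 3′ untranslated regions, because a hairpin can lower transcripts that pair with positions 2 to 8 of its antisense strand. The letters searched were GTAAAGC for shRNF5 #1, CAGTATG for #2 and GAGAGAA for #3. The first stood in 4 of 10 members, namely PPP6C, C1D, IER3IP1 and FAM189B, with 5 matches. It stood in 8.45% of 9904 expressed genes with a 3′ untranslated region in the annotation. Sites in PPP6C, C1D and IER3IP1 are shown with 11 bases on each side and the match in capitals, 5′ to 3′ on the transcript strand, from GRCh37.
PPP6C, chr9:127908999-127909027, minus strand: tgctaatgtttGTAAAGCaccttcagttc
C1D, chr2:68269873-68269901, minus strand: acagtaaatatGTAAAGCtaaatactttc
C1D, chr2:68268760-68268788, minus strand: taatggattttGTAAAGCatgttgaactc
IER3IP1, chr18:44682417-44682445, minus strand: ttgtcaaaaatGTAAAGCtgaaaataaaa

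The letters for #2, CAGTATG, stood in 2 members, PRNP and FAM189B, against 10.6% of genes, and those for #3, GAGAGAA, in C1D alone, against 19.1%. The PRNP site is shown in the same way.
PRNP, chr20:4681212-4681240, plus strand: tttacttttcaCAGTATGggctacacagc
The members' 3′ untranslated regions were longer, with a median of 1682.5 bases against 1337 over all 9904 genes. Per kilobase, GTAAAGC occurred 0.218 times in the members and 0.0474 times in all genes. Members with a GTAAAGC match had median log2 fold changes of -1.44 for MOLM-13, -1.04 for U937 and -1.14 for HL-60. The 6 members without one had -1.26, -1.30 and -1.16, and in each line the log2 fold changes with and without the letters covered overlapping ranges. Among all genes with the match the medians were 0.05, 0.12 and -0.08, and 1.79%, 5.14% and 16.1% were called lower, against 1.01%, 7.69% and 11.5% of the genes without it. A match is a description of the letters, and binding of a hairpin there was not tested.

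All 10 members were lower in every shRNF5 library than in every pLKO library of the same line, which describes the choice of the genes. Such a separation was found in 19.2% of all genes for MOLM-13, 30.2% for U937 and 18.6% for HL-60. A gene was called lower at a limma adjusted p under 0.1 and a log2 fold change below -0.4. All 10 members met that rule in every line, which again describes their choice for a fall in each line. The rule called lower 1.01% of 13026 genes for MOLM-13, 8.74% of 13165 for U937 and 12.3% of 12570 for HL-60. The level left in the shRNF5 libraries was 34.2% to 63.5% of the pLKO mean in MOLM-13, with a median of 39.4%. It was 30.9% to 55.6% in U937 (median 46.7%) and 39.5% to 74.2% in HL-60 (median 46.2%). Median log2 fold changes of the members were -1.32, -1.08 and -1.16 in MOLM-13, U937 and HL-60, beside 0.0073, 0.0042 and 0.0020 over all genes tested.

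**Figure D1:**
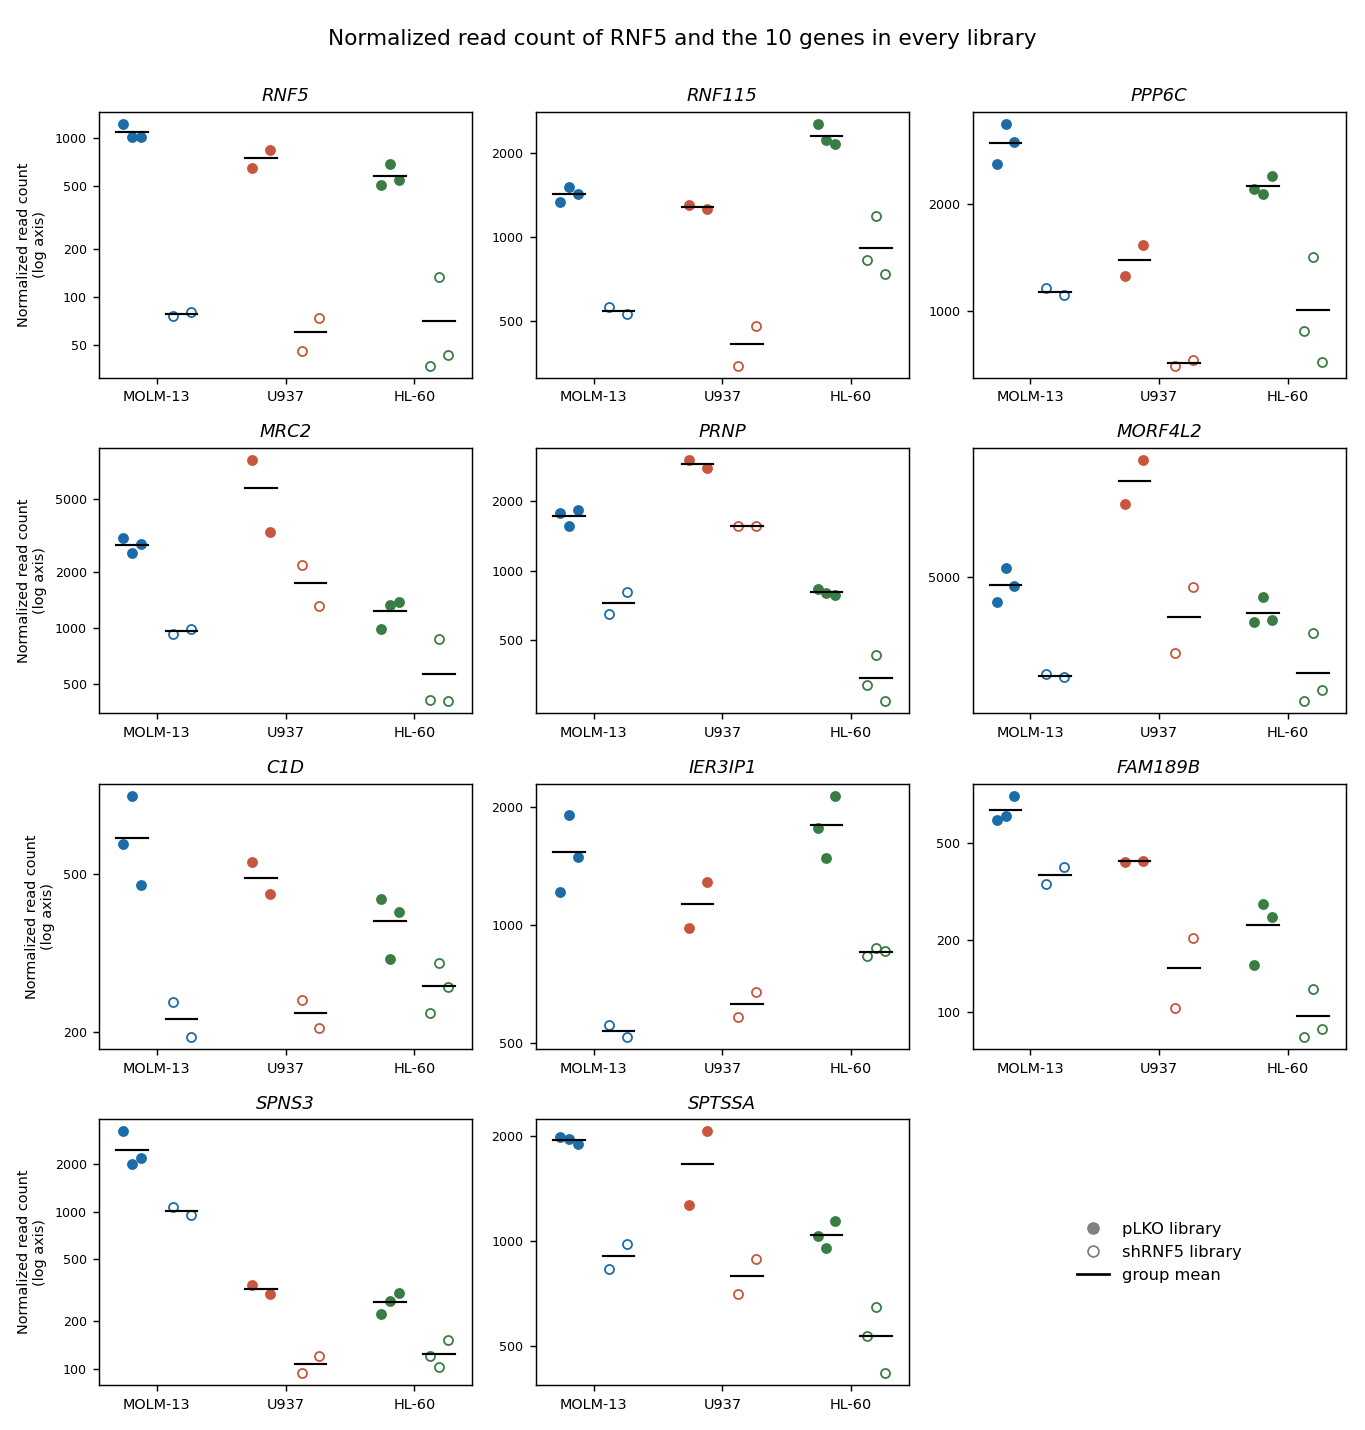
Normalized read counts (log axis, a separate scale for each gene) of RNF5 and the 10 genes in the 15 libraries, grouped by line. Filled points are pLKO libraries, open points shRNF5 libraries and bars group means. No open point reaches a filled point of the same line, and in HL-60 one shRNF5 library often lies above the other two.

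Of the 108 genes with log2 fold changes below -0.4 in all 3 lines, 17 were called in all 3, and the 10 members are among these 17. Among the members, MORF4L2 and FAM189B lay nearest the limit, both with a largest adjusted p of 0.0853. XIAP, an inhibitor of caspases, lay just outside with 0.104. PPP1R15B, a regulatory subunit of the phosphatase that acts on eIF2α, and TGDS followed with 0.111 and 0.114. Most fits that left out 1 library called fewer members in MOLM-13 and U937. Such fits also have fewer libraries, and some leave 1 library in a group, so whether a call rested on a single library was not tested. Among members in MOLM-13 the fold change of SPNS3 moved most, from -1.27 to between -1.40 and -1.06. In U937 that of MRC2 moved most, from -1.60 to between -2.25 and -0.95. In MOLM-13, 10 members were called without pLKO replicate 1, 4 without pLKO replicate 3, and 0 without pLKO replicate 2, shRNF5 replicate 1 or shRNF5 replicate 2. In U937, 6 were called without pLKO replicate 3 and 0 without any other library, while in HL-60 between 8 and 10 were called. The calls lost in HL-60 were those of MORF4L2, in 5 of 6 fits, and C1D, in 4 of 6. In no fit that left out 1 library, in any line, did a member's fold change turn positive.

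RNF115 (ENSG00000121848.9) encodes a RING ubiquitin ligase that works with the BAG6 machinery on misplaced membrane proteins. It lies at chr1:145611018-145696218 of GRCh37 on the plus strand. RNF115 counts in MOLM-13 were 1334, 1514 and 1427 with pLKO and 561 and 527 with shRNF5. RNF115 counts in U937 were 1301 and 1267 with pLKO and 345 and 477 with shRNF5. RNF115 counts in HL-60 were 2545, 2240 and 2170 with pLKO and 824, 1189 and 736 with shRNF5. The groups did not overlap, and the lowest pLKO library was at least 1.83 times the highest shRNF5 library in every line. The log2 fold change was -1.39 ± 0.15 (SE) for MOLM-13, -1.66 ± 0.27 for U937 and -1.37 ± 0.17 for HL-60. Among 11071 genes, RNF5 had the pattern most like that of RNF115, with a Pearson r of 0.984 over the 15 libraries after each line's mean was taken away. RNF115 was chosen on the contrast that lowers RNF5, so this likeness describes the choice. POLR3C, a subunit of RNA polymerase III, overlaps RNF115 on the other strand, and its log2 fold changes were -0.03, 0.73 and -0.17 (limma adjusted p = 0.919, 0.105 and 0.296). CD160, also on the other strand, did not exceed 48 in any library.

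Beside RNF115, 10 genes of the BAG6 route and its relatives were examined, all of them tested. None was called in MOLM-13. In U937, GET4 fell (log2 fold change -1.88, limma adjusted p = 0.0266) and CAMLG fell (-1.19, 0.0339), while ASNA1 rose (1.21, 0.0321); these act in the delivery of tail-anchored proteins to the ER. In HL-60, UBL4A, the partner of GET4 and BAG6, rose (0.55, 0.0281). The list's median log2 fold changes were -0.04, 0.15 and 0.0012.

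PPP6C (ENSG00000119414.7), the catalytic subunit of protein phosphatase 6, lies at chr9:127908852-127952218 on the minus strand. PPP6C counts in MOLM-13 were 2597, 3362 and 2992 with pLKO and 1160 and 1113 with shRNF5. PPP6C counts in U937 were 1260 and 1532 with pLKO and 703 and 729 with shRNF5. PPP6C counts in HL-60 were 2206, 2146 and 2410 with pLKO and 881, 1418 and 720 with shRNF5. Between 38.1% (MOLM-13) and 51.3% (U937) of the pLKO mean was left. Log2 fold changes were -1.38 ± 0.15 for MOLM-13, -0.96 ± 0.25 for U937 and -1.22 ± 0.21 for HL-60. Its most similar gene was MRPS27, a mitochondrial ribosome protein (r = 0.983), and RNF5 ranked 6 (r = 0.966). The 9 regulatory subunits and related phosphatases had median log2 fold changes of 0.18, 0.39 and 0.04, and none was called in MOLM-13. In U937, the regulatory subunit ANKRD28 fell (-0.69, limma adjusted p = 0.0945) and ANKRD52 rose (1.18, 0.0529), at 0.77 without U937 shRNF5 replicate 1. In HL-60, PPP6R2 rose (0.41, 0.0698), as did PPP2CB, a catalytic subunit of protein phosphatase 2A (0.64, 0.00802).

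MORF4L2 (ENSG00000123562.12), at chrX:102930424-102943086 on the minus strand, encodes an MRG-family protein found in histone acetyltransferase and deacetylase complexes. MORF4L2 counts in MOLM-13 were 4405, 5225 and 4775 with pLKO and 3071 and 3028 with shRNF5. MORF4L2 counts in U937 were 7188 and 8952 with pLKO and 3416 and 4758 with shRNF5. MORF4L2 counts in HL-60 were 3993, 4509 and 4036 with pLKO and 2685, 3771 and 2844 with shRNF5. In HL-60 the groups nearly met, as the lowest pLKO library was 1.06 times the highest shRNF5 library. This was the smallest fall of any member in MOLM-13 and HL-60, with log2 fold changes of -0.65 ± 0.14 and -0.45 ± 0.14, beside -0.99 ± 0.26 in U937. The most similar gene was DPH5, an enzyme of diphthamide synthesis (r = 0.951). The antisense gene MORF4L2-AS1 did not exceed 38, and the named pseudogene copy was at 0. Of 19 MRG and NuA4 complex genes, none was called in MOLM-13. In U937 ING3 rose (1.08, limma adjusted p = 0.0804). In HL-60 MBTD1 (-0.45, 0.0713) and TRRAP (-0.64, 0.0677) fell, whereas MORF4L1 (0.43, 0.0207), MRFAP1 (0.44, 0.0558) and YEATS4 (0.71, 0.0129) rose. Without HL-60 shRNF5 replicate 3, MBTD1 was at -0.30 and TRRAP at -0.41. The MBTD1 and TRRAP calls were lost in 4 and 3 of 6 fits that each left out 1 library. The call of MRFAP1, which rose, was lost in 4 of these 6 fits. MORF4L1 is the closest relative of MORF4L2, which had -0.45 in HL-60.

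C1D (ENSG00000197223.7), at chr2:68268262-68338080 on the minus strand, encodes a small nuclear protein that binds the exosome nuclease EXOSC10. C1D counts in MOLM-13 were 597, 788 and 469 with pLKO and 238 and 194 with shRNF5. C1D counts in U937 were 535 and 445 with pLKO and 241 and 205 with shRNF5. C1D counts in HL-60 were 432, 306 and 401 with pLKO and 223, 299 and 260 with shRNF5. The HL-60 groups nearly touched, at 306 and 299, while in the other lines the gap was at least 1.85-fold. Log2 fold changes were -1.49 ± 0.25 for MOLM-13, -1.13 ± 0.30 for U937 and -0.54 ± 0.18 for HL-60. FAM204A had the most similar pattern (r = 0.933), and RNF5 ranked 15. The 5 processed pseudogenes named after C1D were listed at 0, and reads shared between C1D and these copies could have been split or dropped in counting.

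Of 15 genes of the RNA exosome and partners of C1D, 2 were called in each line. In MOLM-13 EXOSC3 (-0.82, limma adjusted p = 0.0882) and EXOSC8 (-0.77, 0.0704), subunits of the exosome, fell. These 2 were the only genes called in MOLM-13 among the 122 listed here beside the members. Fits that left out 1 library gave -0.96 to -0.72 for EXOSC3 and -0.89 to -0.66 for EXOSC8 in MOLM-13. In U937 EXOSC7 fell (-0.93, 0.0511) and MPHOSPH6, an exosome cofactor, rose (1.19, 0.0699). Without U937 pLKO replicate 2 the MPHOSPH6 value was 0.62. In HL-60 EXOSC3 (-0.59, 0.0339) and EXOSC10 (-0.43, 0.0850) fell, and EXOSC10 was at -0.27 without HL-60 shRNF5 replicate 3. The medians of the 15 genes were -0.30 for MOLM-13, 0.09 for U937 and -0.08 for HL-60.

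IER3IP1 (ENSG00000134049.3), at chr18:44679205-44702735 on the minus strand, encodes a small membrane protein of the ER. IER3IP1 counts in MOLM-13 were 1218, 1907 and 1493 with pLKO and 556 and 519 with shRNF5. IER3IP1 counts in U937 were 983 and 1285 with pLKO and 584 and 676 with shRNF5. IER3IP1 counts in HL-60 were 1767, 1480 and 2135 with pLKO and 834, 875 and 857 with shRNF5. The HL-60 shRNF5 libraries lay close together for this gene, with replicate 2 barely above the others, while the pLKO libraries were spread more widely. The fall amounted to log2 fold changes of -1.49 ± 0.20, -0.84 ± 0.27 and -1.05 ± 0.14 in MOLM-13, U937 and HL-60. Its most similar gene was DLAT, of the pyruvate dehydrogenase complex (r = 0.953). Of 20 genes of transport from ER to Golgi, none was called in MOLM-13 or U937. In HL-60, 5 rose and 2 fell. KDELR2 (0.77, limma adjusted p = 0.00713), KDELR1 (0.44, 0.0772), SEC23A (0.79, 0.0185), SAR1A (0.44, 0.0205) and SURF4 (0.43, 0.0442) rose. SEC24B (-0.76, 0.00812) and MCFD2 (-0.42, 0.0321) fell. These genes encode cargo receptors, coat proteins and the GTPase that starts the coat.

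PRNP (ENSG00000171867.12), at chr20:4666996-4682236 on the plus strand, encodes the prion protein, held at the cell surface by a glycosylphosphatidylinositol (GPI) anchor. PRNP counts in MOLM-13 were 1784, 1567 and 1832 with pLKO and 645 and 805 with shRNF5. PRNP counts in U937 were 3031 and 2802 with pLKO and 1562 and 1558 with shRNF5. PRNP counts in HL-60 were 832, 799 and 782 with pLKO and 317, 429 and 269 with shRNF5. The pLKO libraries of each line were close together, and the groups were at least 1.79-fold apart. Its log2 fold changes were -1.26 ± 0.16, -0.90 ± 0.23 and -1.27 ± 0.17. As for RNF115, the most similar gene was RNF5 (r = 0.968), which likewise describes the choice of the gene. Of 9 genes of GPI anchoring and prion relatives, 7 were tested and none was called in MOLM-13. PGAP1, a remodelling enzyme of the anchor, fell in U937 (-0.97, limma adjusted p = 0.0920). In HL-60 ADAM10, a protease that sheds the prion protein, fell (-0.60, 0.0352), and GPAA1 (0.48, 0.0272) and PIGK (0.53, 0.0300), subunits of the GPI transamidase, rose. The ADAM10 value was -0.40 without HL-60 shRNF5 replicate 3.

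MRC2 (ENSG00000011028.9), at chr17:60705031-60770958 on the plus strand, encodes an endocytic receptor for collagen of the mannose receptor family. MRC2 counts in MOLM-13 were 3076, 2533 and 2836 with pLKO and 930 and 993 with shRNF5. MRC2 counts in U937 were 8095 and 3289 with pLKO and 2198 and 1322 with shRNF5. MRC2 counts in HL-60 were 990, 1330 and 1385 with pLKO and 408, 878 and 402 with shRNF5. The U937 pLKO libraries differed more from each other than for any other member, with an SD of 59.7% of the mean. Log2 fold changes were -1.55 ± 0.15 in MOLM-13, the largest fall of any member there, -1.60 ± 0.40 in U937 and -1.22 ± 0.27 in HL-60. Without U937 pLKO replicate 2 the U937 value was -0.95, and without replicate 3 it was -2.25. CLSTN1, a membrane protein of the calsyntenin family, was most similar (r = 0.969). Of 8 genes of the mannose receptor family and collagen uptake, 6 were tested for MOLM-13, and none of these was called. The number tested for U937 was also 6. PLAU, the urokinase, fell in U937 (-1.48, limma adjusted p = 0.0876), and its pLKO libraries there were also far apart (3348 ± 2717, SD, n = 2). The PLAU value was -0.53 without U937 pLKO replicate 2 and -2.42 without replicate 3. Only 4 genes of this list were tested for HL-60, of which LY75 (0.88, 0.0199), LAIR1 (0.54, 0.0169) and PLAUR (0.52, 0.0913) rose.

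FAM189B (ENSG00000160767.16), listed as ENTREP3 in the annotation, lies at chr1:155216996-155225274 on the minus strand and encodes a membrane protein. FAM189B counts in MOLM-13 were 621, 651 and 786 with pLKO and 340 and 399 with shRNF5. FAM189B counts in U937 were 417 and 424 with pLKO and 104 and 202 with shRNF5. FAM189B counts in HL-60 were 157, 281 and 248 with pLKO and 79, 125 and 85 with shRNF5. The groups did not overlap, with the narrowest gap in HL-60 (157 against 125). This gave log2 fold changes of -0.89 ± 0.18, -1.53 ± 0.38 and -1.23 ± 0.26. The gene most like it was PHC1, of the Polycomb group (r = 0.963). Of 8 relatives and WW-domain proteins, 6 were tested. None of these was called in MOLM-13 or U937, and the ubiquitin ligases ITCH (0.44, limma adjusted p = 0.0320) and WWP1 (0.54, 0.0327) rose in HL-60.

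SPTSSA (ENSG00000165389.6), at chr14:34901994-34931446 on the minus strand, encodes the small subunit of serine palmitoyltransferase, which begins sphingolipid synthesis. SPTSSA counts in MOLM-13 were 1979, 1952 and 1888 with pLKO and 834 and 981 with shRNF5. SPTSSA counts in U937 were 1267 and 2056 with pLKO and 707 and 886 with shRNF5. SPTSSA counts in HL-60 were 1034, 957 and 1139 with pLKO and 535, 649 and 420 with shRNF5. Of all members it fell by the most even amount, to 46.8%, 47.9% and 51.2% of the pLKO mean in MOLM-13, U937 and HL-60. The log2 fold changes came to -1.10 ± 0.14, -1.03 ± 0.29 and -0.98 ± 0.17. Without U937 pLKO replicate 3 the U937 value was -0.68. SFT2D1, a Golgi transport protein, was most similar (r = 0.963), and RNF5 ranked 3.

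SPNS3 (ENSG00000182557.3), at chr17:4337235-4391503 on the plus strand, encodes a Spinster-family transporter. SPNS3 counts in MOLM-13 were 3245, 2017 and 2183 with pLKO and 1070 and 951 with shRNF5. SPNS3 counts in U937 were 339 and 300 with pLKO and 94 and 120 with shRNF5. SPNS3 counts in HL-60 were 222, 271 and 305 with pLKO and 120, 102 and 151 with shRNF5. It was the one member for which HL-60 shRNF5 replicate 2 was the lowest of the shRNF5 libraries. In log2 terms SPNS3 changed by -1.27 ± 0.22, -1.58 ± 0.35 and -1.10 ± 0.20. SC5D, an enzyme of cholesterol synthesis, had the most similar pattern (r = 0.939). Of 24 genes of sphingolipid synthesis and related transporters, 20 were tested in MOLM-13, and none was called. In U937 the ceramidase ASAH1 fell (-1.28, limma adjusted p = 0.0555) and the desaturase DEGS1 rose (0.96, 0.0480). The ASAH1 value was -0.70 without U937 pLKO replicate 2, and its pLKO libraries were far apart (19133 ± 10438, SD, n = 2). In HL-60 CERS6, a ceramide synthase (-0.70, 0.0211), and SGMS2 (-1.17, 0.0749) fell, and ORMDL3, which restrains serine palmitoyltransferase (0.66, 0.00663), and the sphingosine kinase SPHK1 (1.89, 0.00775) rose. SGMS2 was at -0.72 without HL-60 pLKO replicate 3. SGMS2 and SPHK1 were low, at 73.67 or less on average in each HL-60 group.

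**Figure D2:**
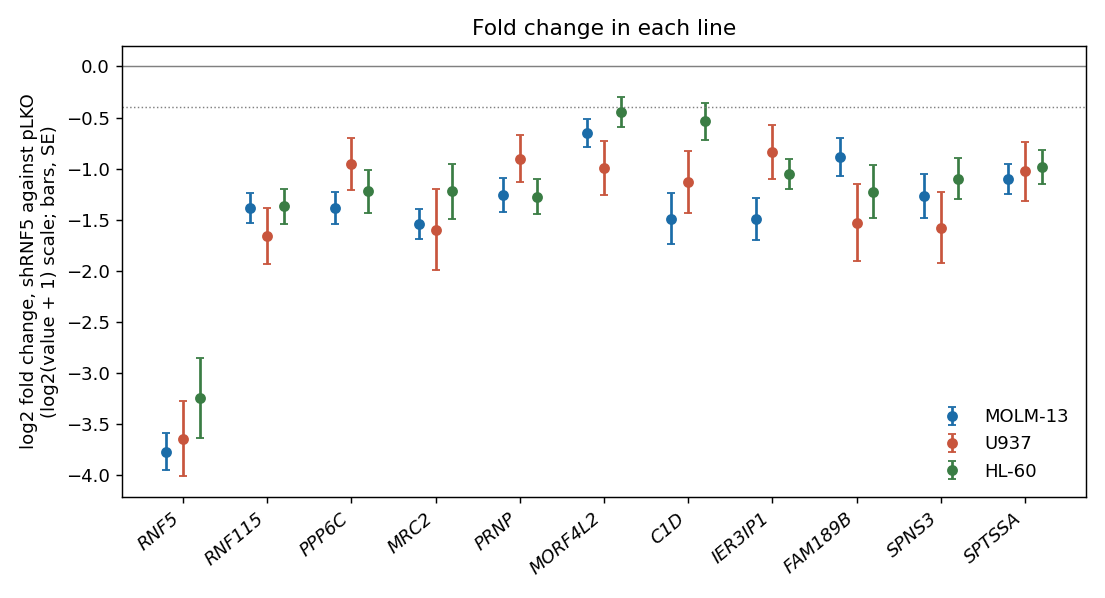
Log2 fold change of shRNF5 against pLKO on the log2(value + 1) scale for RNF5 and the 10 genes, with 1 point for each line and bars for the SE. The dotted line marks the limit of -0.4 used for calls. All points of the 10 genes lie between -1.66 and -0.45, well above those of RNF5.

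Over all 9 lists, 122 genes were examined and 112, 113 and 112 were tested in MOLM-13, U937 and HL-60. The shares called lower were 1.79%, 6.19% and 8.04%, beside 1.01%, 8.74% and 12.3% of all genes. The shares called higher were 0%, 4.42% and 17.9%, beside 1.03%, 6.92% and 13.6%. No listed gene was called in the same direction in all 3 lines by limma. At an unadjusted p under 0.05 in the same fits, 20.5% of listed genes passed for MOLM-13, 21.2% for U937 and 38.4% for HL-60, beside 17%, 27.1% and 35.0% of all genes. Leaving out 1 library ended the call in at least 1 fit for 2 of 2 listed genes in MOLM-13, 12 of 12 in U937 and 16 of 29 in HL-60. In HL-60 the calls of PPP6R2 and EXOSC10 were lost in 5 of 6 such fits. Those of KDELR1, SURF4, MRFAP1, PLAUR, MBTD1 and SGMS2 were lost in 4 of 6.

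Next, the size of the fall was compared between lines in 1 limma fit over all libraries, which tested 11072 genes. The members were chosen on a fall in each line and not on a difference between lines, but the same libraries were used. Of 30 differences, 1 passed an adjusted p of 0.1. C1D fell further in MOLM-13 than in HL-60, by -0.95 ± 0.31 (SE) on the log2 scale, with a 95% interval from -1.62 to -0.28 and a limma adjusted p of 0.0970. This call was lost in 14 of 22 alternatives, with adjusted p from 0.0503 to 0.310, and it kept its sign in all of them. Leaving out either MOLM-13 shRNF5 library, MOLM-13 pLKO replicate 1 or 2, any HL-60 pLKO library, HL-60 shRNF5 replicate 2 or 3, or either U937 shRNF5 library ended the call, with differences from -1.10 to -0.76.

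No member differed between MOLM-13 and U937 or between U937 and HL-60 with limma, and 1 in each had an unadjusted p under 0.05. These were IER3IP1, by -0.65 in MOLM-13 against U937 (adjusted p = 0.166), and MORF4L2, by -0.55 in U937 against HL-60 (adjusted p = 0.113). Over all 11072 genes, 15.4% differed for MOLM-13 against U937, 8.82% for MOLM-13 against HL-60 and 37.2% for U937 against HL-60. Among genes called lower in both lines compared, these shares were 3.45% of 29, 5.26% of 57 and 18.8% of 69. Intervals were wide, with half-widths up to 1.11 on the log2 scale for MRC2, and a failed test does not show equal responses. The interval for SPTSSA, MOLM-13 minus U937, ran from -0.73 to 0.59. That of RNF115 between MOLM-13 and HL-60 ran from -0.57 to 0.53.

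**Figure D3:**
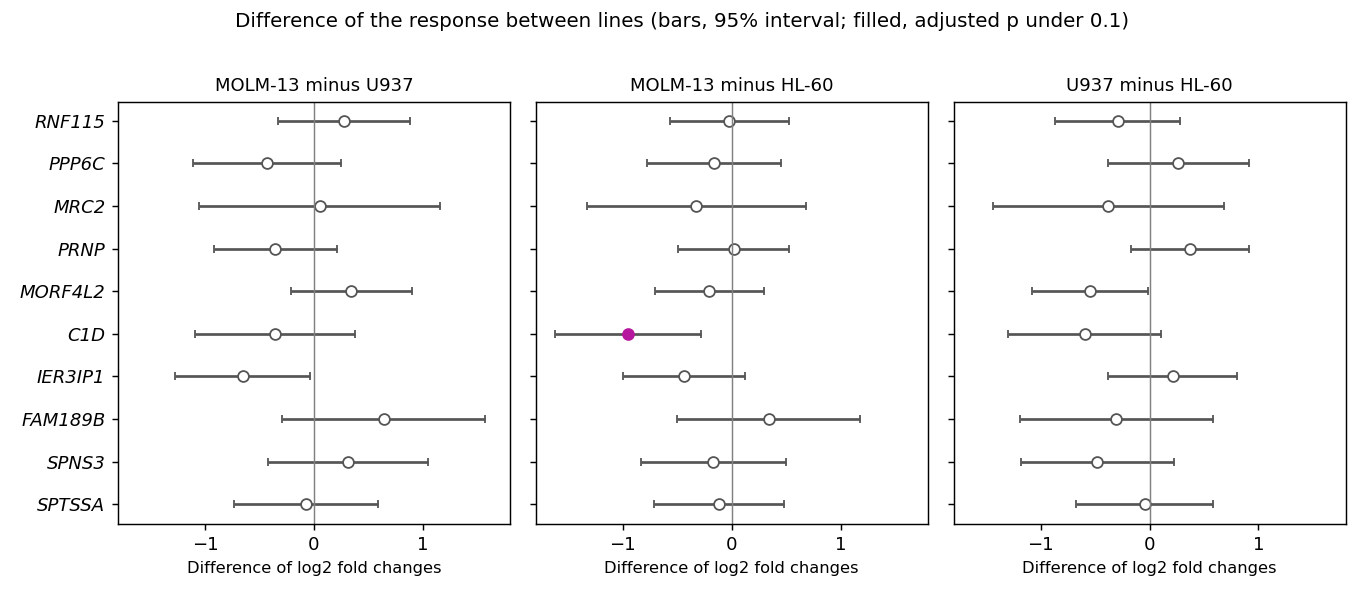
Difference of the log2 fold changes between each pair of lines for the 10 genes, with 95% intervals. Negative values mean a larger fall in the line named first, and the filled point, C1D in MOLM-13 minus HL-60 at -0.95, is the 1 difference with an adjusted p under 0.1.

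By estimate alone, the fall was largest in MOLM-13 for 4 members, in U937 for 5 and in HL-60 for PRNP only. It was smallest in HL-60 for 6 members, in U937 for 3 and in MOLM-13 for FAM189B. These orders are descriptions, since the differences mostly failed the test.

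Within HL-60, the library that kept the most RNF5 also kept the most of the members. Replicate 2 was the highest of the 3 shRNF5 libraries for 9 of 10 members, replicate 3 for SPNS3 and replicate 1 for none. Among the 1547 genes called lower in HL-60 replicate 2 was the highest in 50.03%, replicate 1 in 40.08% and replicate 3 in 8.40%. The median level left was 58.4% of the pLKO mean in replicate 2, against 42.3% in replicate 1 and 38.7% in replicate 3. MORF4L2 stood at 90.2% of the pLKO mean in replicate 2, while MRC2 stood at 71.1% there and at 33.0% and 32.6% in the others. Without replicate 2 the members' median log2 fold change in HL-60 was -1.28, and with it -1.16. Whether the weaker knockdown of RNF5 in this library bears on these levels was not tested.

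**Figure D4:**
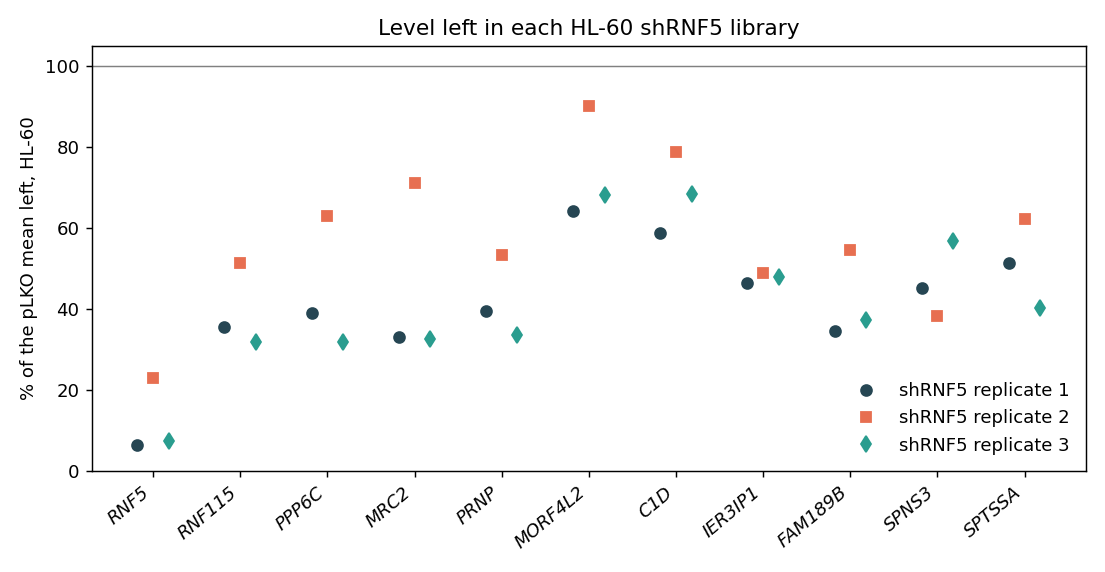
Level in each of the 3 HL-60 shRNF5 libraries as a percent of the pLKO mean, for RNF5 and the 10 genes. Replicate 2 (squares) is the highest for RNF5, at 22.9%, and for all members but SPNS3.

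The members varied together over the libraries once each line's mean was taken away. Over 45 pairs the Pearson r ran from 0.69 (C1D and FAM189B) to 0.96 (PPP6C and PRNP), with a median of 0.87. The 15 libraries share the contrast that chose the genes, so these values describe the choice and carry no test. RNF5 was among the 15 most similar genes of 11071 for every member.

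Because each line was scaled on its own, levels in pLKO cells were rescaled over all 15 libraries by the median of ratios, and the rescaled levels are given as a description. On this scale 6 of the 10 members did not overlap between neighbouring lines. The share of all genes without such overlap was not computed, so this count does not set the members apart. SPNS3 differed most, with a mean of 1874 ± 507 (SD, n = 3) for MOLM-13, 352 ± 34 (n = 2) for U937 and 319 ± 51 (n = 3) for HL-60, a ratio of 5.88. Its MOLM-13 libraries were all above the others, and those of U937 and HL-60 overlapped. MRC2 was highest in U937 (6281 ± 3806), then MOLM-13 (2126 ± 219) and HL-60 (1479 ± 258), without overlap. PRNP had the same order, with 3209 ± 213, 1305 ± 119 and 963 ± 29, and no overlap.

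RNF115 was highest in HL-60 (2776 ± 235), followed by U937 (1413 ± 42) and MOLM-13 (1076 ± 62). MORF4L2 was highest in U937 (8869 ± 1275), then HL-60 (5004 ± 334) and MOLM-13 (3624 ± 286). Neither gene had overlapping lines. PPP6C was highest in HL-60 (2699 ± 174) and lowest in U937 (1534 ± 195), a ratio of 1.76. IER3IP1 was highest in HL-60 (2149 ± 399), and U937 and MOLM-13 overlapped. FAM189B was lowest in HL-60 (274 ± 77), against 518 ± 70 in MOLM-13 and 463 ± 0.41 in U937. SPTSSA levels in U937 and MOLM-13 overlapped. C1D did not separate the lines, as the libraries of neighbouring lines overlapped and the highest mean was 1.19 times the lowest.

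**Figure D5:**
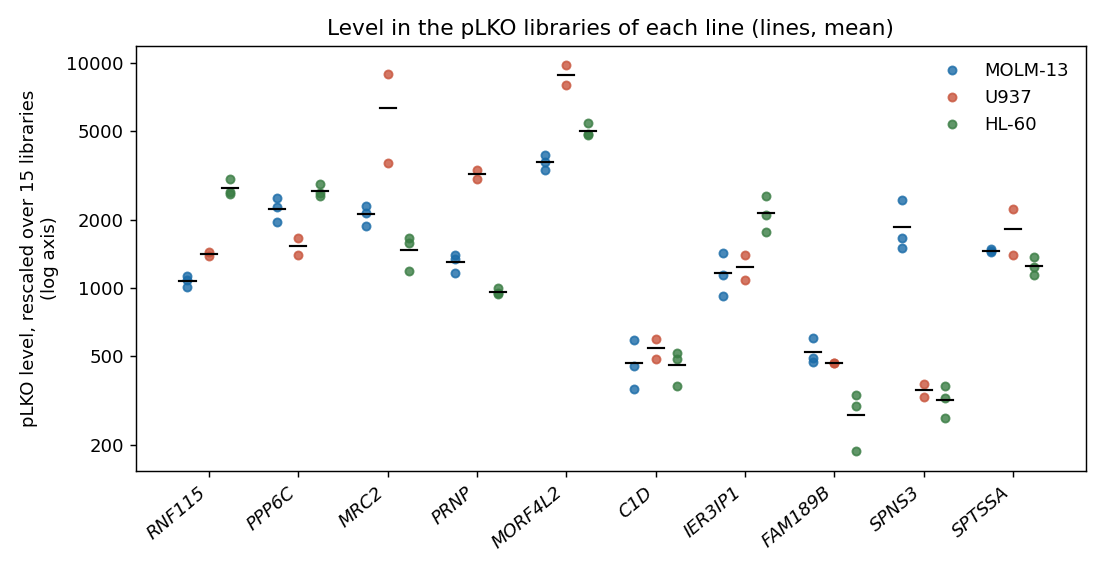
Level of the 10 genes in each pLKO library after rescaling over the 15 libraries (log axis), with bars for the line means. SPNS3 stands out in MOLM-13, MRC2, PRNP and MORF4L2 in U937, and RNF115 and IER3IP1 in HL-60, while the C1D libraries of the 3 lines overlap.

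The scaling changed part of this order. On the deposited scale MOLM-13 held the highest pLKO mean for 5 members, U937 for 3 and HL-60 for 2. After rescaling these counts were 2, 5 and 3. On both scales SPNS3 and FAM189B were highest in MOLM-13, MRC2, PRNP and MORF4L2 in U937, and RNF115 and IER3IP1 in HL-60. Set beside the falls, SPNS3, with the widest spread of baselines, had log2 fold changes of -1.27, -1.58 and -1.10 in MOLM-13, U937 and HL-60. C1D, with the narrowest, had -1.49, -1.13 and -0.54.

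Promoters were read from the RefSeq table for GRCh38.p14, which held 4 of the 10 members (RNF115, PPP6C, C1D and SPTSSA), as windows of 300 bases around the transcription start. Both strands were searched for CCAAT (NFY), GGGCGG (SP), CCGGAAG (ETS), CGCATGC (NRF1), TGACGTC (CRE) and CACGTG (E-box). CCAAT and GGGCGG were in the promoters of RNF115 and SPTSSA, against 37.6% and 71.4% of 8276 expressed genes with a promoter in the table. CCGGAAG was in that of RNF115, against 22%. The other 3 motifs were in none of the 4, against 7.24%, 6.04% and 10.9%. The promoters of RNF115 and SPTSSA are shown because they hold the matches, on the strand of the gene with matches of either strand in capitals.
RNF115, chr1:145824046-145824345, minus strand of GRCh38.p14: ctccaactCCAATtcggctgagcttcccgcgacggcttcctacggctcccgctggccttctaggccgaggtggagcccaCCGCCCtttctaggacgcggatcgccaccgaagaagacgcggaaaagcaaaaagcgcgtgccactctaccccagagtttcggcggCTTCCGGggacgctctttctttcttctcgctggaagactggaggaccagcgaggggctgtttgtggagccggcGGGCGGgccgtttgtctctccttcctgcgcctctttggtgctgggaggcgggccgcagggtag
SPTSSA, chr14:34462191-34462490, minus strand of GRCh38.p14: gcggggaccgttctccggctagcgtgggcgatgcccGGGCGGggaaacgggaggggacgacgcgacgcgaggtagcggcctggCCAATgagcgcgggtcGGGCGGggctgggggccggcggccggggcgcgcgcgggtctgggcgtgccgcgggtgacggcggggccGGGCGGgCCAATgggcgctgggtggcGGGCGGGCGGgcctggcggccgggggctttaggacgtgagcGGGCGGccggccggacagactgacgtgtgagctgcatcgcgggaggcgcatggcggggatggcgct
The SPTSSA promoter held 6 matches to GGGCGG, 2 of them overlapping, and 2 to CCAAT. RNF115 stands on the plus strand in GRCh37 and on the minus strand in GRCh38.p14. The GC content of the SPTSSA promoter was 79.7%, and that of RNF115 64.3%. A match is not a site of binding, and the promoters of PPP6C and C1D held none of the motifs.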

How the data were processed

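The 15 RNA-seq libraries were grouped by line (HL-60, MOLM-13 or U937) and construct as the labels give them. The authors used STAR for mapping to hg19, featureCounts of Subread for gene counts, and edgeR through SARTools for scaling; the labels name a 3′ end kit and the methods a directional poly(A) kit. The deposited values are a score, meaning counts scaled within each line and rounded to whole numbers, with filtered genes listed at 0. Read counts before scaling were not used here. Tests were therefore run with limma 3.58.1 (R 4.3.3) on log2(value + 1), with a mean-variance trend, for each line over genes above 0 in any library, and calls needed a Benjamini-Hochberg adjusted p under 0.1 and a log2 fold change beyond 0.4 in size. The lines were compared in 1 fit over the 15 libraries. Fold changes on this scale understate the change of genes with low values. Scripts were tested on simulated data, where false calls ran somewhat above the nominal share in every line and most changed genes were missed in U937. Low values are the least precise, and counting intervals are left out because scaled values are not counts.

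The members, gene lists and tests were chosen with earlier results of these data known. Named are the members, RNF5, the 3 genes nearest outside the call limit, listed genes called in any line, the most similar gene to each member, and overlapping genes or copies. The main fits did not pair libraries by replicate number. Same-numbered deviations correlated at 0.39, 0.12 and -0.05 in HL-60 and at -0.13 and -0.45 in MOLM-13. In U937, where 1 number is shared, the value was 0.26. Under the numbers of the file names, the MOLM-13 values were 0.45 and 0.27. In a group of 2 libraries the deviations mirror each other, so these values cannot show whether replicates were paired. The median of ratios used 11054 genes. Positions and 3′ untranslated regions came from GENCODE on GRCh37, and promoters from RefSeq. RNF115 was matched by symbol. A further marker of another cell type and some site sequences are not reported here. Alternatives were other pseudocounts, a mean of at least 50, rescaling, no trend, 1 fit, an adjusted p of 0.05, a replicate block and leaving out each library.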

Additional observations from a re-analysis of the deposited data

Results flagged for a closer look

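The response of C1D to RNF5-KD differed between MOLM-13 and HL-60, with a log2 difference of -0.95 (95% interval -1.62 to -0.28, limma adjusted p = 0.0970). It was flagged because the difference itself was tested and passed the limit of 0.1. After rescaling over all 15 libraries, the C1D shRNF5 libraries of these lines did not overlap. They stood at 180 and 148 for MOLM-13 and at 263, 355 and 310 for HL-60. The rescaled pLKO libraries overlapped, from 357 to 589 for MOLM-13 and from 366 to 517 for HL-60. The deposited values were scaled within each line, so they do not compare levels between lines. Deposited shRNF5 values were 238 and 194 for MOLM-13 and 223, 299 and 260 for HL-60. Deposited pLKO values ranged from 469 to 788 for MOLM-13 and from 306 to 432 for HL-60. At an adjusted p of 0.05 the difference did not pass, and the call was lost in 14 of 22 alternatives. Over all 11072 genes 8.82% differed in this comparison, beside 1 of the 10 members. No group had more than 3 libraries, so single libraries were not examined as outliers within a group.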

How the results depend on the processing

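No result changed direction among those called. Of the results for single genes, 1349 kept their call, 257 lost it and 8 gained one, and of the counts 119 stayed within 1.5-fold and 55 moved. At an adjusted p of 0.05, 6 members were called lower in MOLM-13 and 6 in U937, 0 and 4 listed genes were called there, and 0 members differed between MOLM-13 and HL-60. Without the mean-variance trend these counts were 5, 2, 0, 1 and 0. One fit over all libraries called 36 listed genes in U937 in place of 12. Median-of-ratios rescaling left 0 members that differed between MOLM-13 and HL-60 and gave 1 (MORF4L2, adjusted p = 0.0994) between U937 and HL-60. Both rescalings, by median of ratios and by upper quartile, put the highest pLKO mean in MOLM-13 for 2 members and in U937 for 5.

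Leaving out each library in turn, members called lower ranged from 0 to 10 in MOLM-13, 0 to 6 in U937 and 8 to 10 in HL-60. Listed genes called ranged from 0 to 9, 0 to 14 and 18 to 31. Members that differed ranged from 0 to 1 between MOLM-13 and U937, 0 to 1 between MOLM-13 and HL-60 and 0 to 2 between U937 and HL-60. The 2 were PPP6C and PRNP, without HL-60 shRNF5 replicate 2. IER3IP1 differed between MOLM-13 and U937 without MOLM-13 pLKO replicate 1 or U937 pLKO replicate 3, and MORF4L2 between U937 and HL-60 without U937 pLKO replicate 2, U937 shRNF5 replicate 3 or HL-60 shRNF5 replicate 1. Where 1 library of a group remained, it was assumed to vary like the other group. These fits also have fewer libraries, and the cause of the other changes was not tested.

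With the replicate number as a block, 8 members and 4 listed genes were called in MOLM-13, 10 members and 30 listed genes in HL-60, and 0, 1 and 0 members differed between MOLM-13 and U937, MOLM-13 and HL-60, and U937 and HL-60. No block could be fitted within U937, which has 1 shared number. A block with the MOLM-13 numbers of the file names, chosen after seeing the data, called 10 members and 15 listed genes.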
